A study of Homo sapiens with 8 samples.

Results

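Among distal open-chromatin peaks of vehicle-treated adrenocortical carcinoma cells, 3463 were missing only from the peak list of cells given an EZH2 inhibitor (EZH2i). They were present in both the list of cells given a CBP inhibitor (CBPi) and that of cells given forskolin (FSK). They are called EZH2i-only peaks here. A vehicle peak was distal when its summit lay more than 1 kb from both ends of every protein-coding gene, and it counted as present in a treated list if a peak of that list shared 1 bp or more with it. The rule found 3463 of 48491 distal peaks, 7.14% (95% interval 6.92 to 7.37), out of 61016 peaks in the vehicle list. The peaks were chosen by these measured overlaps, so the absence from the EZH2i list and the presence in the other lists are not results, and "missing" describes a list, not a measured loss of accessibility.

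The cells were NCI-H295R, an established human adrenocortical carcinoma line that makes steroids, and the assay was ATAC-seq, in which the transposase Tn5 inserts adapters into open DNA. The 8 libraries formed 4 groups of 2 biological replicates, each from 50000 cells. All cells came from the 1 line, so the groups share its genome. Vehicle cells had DMSO for 96 h, EZH2i cells had 62 µM EPZ-6438 for 96 h, CBPi cells had 26 µM PRI-724 for 96 h, and FSK cells had vehicle for 48 h and then 10 µM forskolin for 48 h. The FSK exposure was thus shorter than the others, and the labels call the EZH2i and CBPi doses IC-50 doses.

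EZH2 is the catalytic subunit of Polycomb repressive complex PRC2, which methylates a lysine of histone H3 and is known for keeping developmental genes silent. CBP is a histone acetyltransferase that coactivates transcription at enhancers and promoters, and PRI-724 blocks its binding to β-catenin. Forskolin activates adenylyl cyclase and raises cAMP, the second messenger of the hormone ACTH, which drives steroid synthesis in the adrenal cortex. Distal open chromatin often marks enhancers or insulators, and such sites vary more between cell states than promoters do. Neither histone marks nor RNA were measured in these samples.

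Each group had 1 deposited peak list, with 61016 peaks for vehicle, 41086 for EZH2i, 47161 for CBPi and 51095 for FSK. There was therefore no spread between replicates for any value below, no test between conditions was made, and read depth is unknown. The EZH2i list was the shortest. Of 10 adrenocortical marker genes, 8 had a vehicle peak no more than 1 kb from an end; the exceptions were CYP21A2 and HSD3B2. The same was true of 3 of 12 fibroblast, 2 of 12 endothelial, 3 of 12 immune and 5 of 12 chromaffin marker genes. Every interval on a share is a Wilson 95% interval. It takes each peak, or each sequence window, as an independent count and holds no error beyond counting.

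Sequence was at hand for the EZH2i-only peaks that cover an annotated transcription start, from RefSeq windows of 300 bases on GRCh38.p14 (250 before and 50 after a start). Of 3340 such peaks on the chromosomes that the windows cover, 62 overlapped a window, and they overlapped 69 windows of 66 genes. The first runs shown are stretches of 250 bases ahead of a start, written 5′ to 3′ on the strand of the gene, with capitals for letters that match any of 15 motifs searched on both strands. LOC124904677 and MITF are shown because their windows held 4 kinds of motif each, RUFY3 because an AP-1 and an NF-Y match overlap in it, and ING1 for contrast, as the distal peak of largest vehicle area among those present in all lists.
LOC124904677, chr19:23824065-23824314, minus strand: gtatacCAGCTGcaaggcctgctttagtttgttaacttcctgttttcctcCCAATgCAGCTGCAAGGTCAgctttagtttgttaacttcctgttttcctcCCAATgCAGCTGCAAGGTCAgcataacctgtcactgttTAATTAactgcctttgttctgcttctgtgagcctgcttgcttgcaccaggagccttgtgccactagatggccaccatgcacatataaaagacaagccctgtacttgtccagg
MITF, chr3:69936342-69936591, plus strand: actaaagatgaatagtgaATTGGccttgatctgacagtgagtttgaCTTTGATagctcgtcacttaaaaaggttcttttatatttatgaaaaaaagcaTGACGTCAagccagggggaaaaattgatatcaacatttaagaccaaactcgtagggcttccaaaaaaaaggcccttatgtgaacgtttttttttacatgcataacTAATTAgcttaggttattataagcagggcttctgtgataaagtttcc
RUFY3, chr4:70734160-70734409, plus strand: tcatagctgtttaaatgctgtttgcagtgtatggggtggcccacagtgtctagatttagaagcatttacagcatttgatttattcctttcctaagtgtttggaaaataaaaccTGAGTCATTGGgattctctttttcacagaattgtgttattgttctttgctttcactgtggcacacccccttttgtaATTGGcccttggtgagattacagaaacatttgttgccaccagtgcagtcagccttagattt
ING1, chr13:110712373-110712622, plus strand: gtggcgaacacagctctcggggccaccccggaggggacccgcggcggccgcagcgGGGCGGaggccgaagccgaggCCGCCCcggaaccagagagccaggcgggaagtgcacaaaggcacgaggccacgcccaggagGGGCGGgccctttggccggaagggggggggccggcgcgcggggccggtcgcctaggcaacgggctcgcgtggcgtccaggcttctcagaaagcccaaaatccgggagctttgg

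LOC124904677 is a long non-coding RNA gene on chromosome 19, and its 250 bases held the letters CAAGGTCA, the core of the half-site of steroidogenic factor SF1, at 2 places next to the E-box CAGCTG. The peak there had vehicle area 944, at percentile 66.7 of the vehicle list, and counterparts at percentiles 34.98 (CBPi) and 76.1 (FSK). MITF encodes a transcription factor known for its role in pigment cells, and the start shown lies inside the gene. Its window held the cAMP response element letters TGACGTCA and the TCF/LEF letters CTTTGAT, and the peak over it had vehicle area 783 (percentile 60.7), with counterparts at percentiles 30.6 (CBPi) and 25.1 (FSK). RUFY3 encodes a protein of endosome and lysosome transport in neurons. Its window was 40.7% G and C, against 75% for the ING1 window, which held only SP/KLF letters. The nearest EZH2i peak was 60336 bp from the LOC124904677 peak, 33286 bp from the MITF peak and 11199 bp from the RUFY3 peak.

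The next are the runs around the AP-1 letters TGANTCA, the site of FOS and JUN proteins, because AP-1 and FOX were the 2 motifs whose share was higher in the start windows of EZH2i-only peaks than in those of distal peaks present in all lists, with intervals that did not overlap. Capitals mark the AP-1 letters.
LOC124907747, chr2:29130456-29130484, minus strand: cttggtcagcaTGACTCAgcacattgcag
NAXD-AS1, chr13:110616453-110616481, minus strand: ggttctggggaTGACTCAggtgagcctcc
LOC105378339, chr10:65891493-65891521, minus strand: gaactccataaTGACTCAgctattctcaa
SPRED2, chr2:65366767-65366795, minus strand: taaccctcggaTGACTCAtccggtacaat
RAET1E, chr6:149896192-149896220, minus strand: gccctagcatcTGAGTCAcaggatgtcac
SRGAP3-AS2, chr3:9192418-9192446, plus strand: agtcacgtgggTGACTCAtacctccgtga
FKBP14-AS1, chr7:29988468-29988496, plus strand: cggatgagcctTGACTCAcactaattccc
ANK2, chr4:113049514-113049542, plus strand: tggtaattggtTGAATCAgatttaacaat

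In NAXD-AS1 the middle of the AP-1 letters lay 3 bp from the peak summit, in LOC124907747 5 bp, in LOC105378339 30 bp and in FKBP14-AS1 34 bp. In ANK2, which encodes a membrane scaffold of the ankyrin family, the distance was 124 bp. SPRED2, an inhibitor of Ras signalling, had its first match 42 bp from the summit of a small peak of vehicle area 224. Matches lay 57 bp from the summit in RAET1E, 81 bp in SRGAP3-AS2 and 56 and 115 bp in LOC105375284. The matches farthest off but inside the peak were at 199 bp in LOC105372652, 174 to 300 bp in LOC124906130 and 543 bp in RUFY3. In BTG3-AS1 (226 bp) and LINC00519 (600 bp) the letters lay outside the peak. An EZH2i peak lay 230 bp from the NAXD-AS1 peak, 152 bp from the FKBP14-AS1 peak and 74 bp from the BTG3-AS1 peak, so these were near a border.

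AP-1 letters were found in 15 of 69 start windows of EZH2i-only peaks, 21.7% (13.6 to 32.8). They were in 225 of 3173 windows of distal peaks present in all lists, 7.09% (6.25 to 8.04), and in 7.68% of all 34961 windows. Windows of FSK-only peaks, missing from the FSK list alone, held them in 7 of 102 and those of CBPi-only peaks in 3 of 22. For peaks missing from all treated lists the count was 9 of 113. The other classes missing from the EZH2i list lay between, with 6 of 45 (13.3%, 6.26 to 26.2) for peaks also missing from the CBPi list and 10 of 81 (12.3%, 6.85 to 21.3) for those also missing from the FSK list, and both intervals overlapped that of EZH2i-only windows. In 13 of the 69 windows the letters lay inside the peak as well. The window of RAET1E is also that of RAET1E-LRP11 and was counted for each. Counted by peak, the letters were in 14 of 62 EZH2i-only peaks with a start window, 22.6% (13.96 to 34.4). For peaks present in all lists this was 207 of 2308, 8.97% (7.87 to 10.2). The narrower letters TGACTCA, with the reverse complement TGAGTCA, were in 13 of 69 EZH2i-only windows, in 5.14% of windows present in all lists and in 4.92% of all windows. The motif was singled out of 15 after its share was seen, so the size of the difference is a description.

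Base composition moved with this result. The median window of EZH2i-only peaks was 52.0% G and C, against 65.0% for distal peaks present in all lists and 58.7% for all windows. Medians were 54.0% for CBPi-only, 56.8% for FSK-only and 46.7% for peaks missing from all treated lists. Among windows under 55% G and C, AP-1 letters were in 13 of 40 EZH2i-only windows, 32.5% (20.1 to 48.0). They were in 17.6% (14.98 to 20.6) of such windows present in all lists, an interval that overlaps the former, and in 12.6% of all such windows. In windows of 55% or more, the EZH2i-only count was 2 of 29, 6.90%, against 4.09% for windows present in all lists. With all lists shortened to the same length, 28 windows were left and 14.3% of them (5.70 to 31.5) held AP-1 letters. With vehicle area of at least 400 the share was 13.9% of 36 windows (6.08 to 28.7), and both intervals overlap that of windows present in all lists.

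The letters of 14 other motifs were counted in the same 69 windows. SP/KLF letters (CCGCCC) were in 36.2% of EZH2i-only windows (25.9 to 48.0), 63.4% of windows present in all lists and 45.0% of all windows. CTCF core letters (AGGGGGC) were in 8.70% (4.05 to 17.7), 20.5% and 14.4% in the same order. FOX letters (TGTTTAC) were in 6 of 69, 8.70% (4.05 to 17.7), against 2.58% and 3.42%. Windows of FSK-only peaks, CBPi-only peaks and peaks missing from all treated lists held SP/KLF letters in 35.3%, 22.7% and 11.5%. In the same order CTCF core letters were in 17.65%, 9.09% and 6.2%, and FOX letters in 3.92%, 9.09% and 4.4%. SP/KLF and CTCF core letters are mostly G and C, and FOX letters mostly A and T. The median window was 52% G and C for EZH2i-only peaks and 65% for peaks present in all lists. Shares of these motifs were not split by G and C, so the part of base composition in them was not tested. For the 11 other motifs the EZH2i-only interval overlapped that of windows present in all lists. These were SF1 (CAAGGTCA, 2 of 69), CRE (TGACGTCA, 3 of 69), TCF/LEF (CTTTGAT, 3 of 69), AGATAAG of GATA factors (1 of 69), NFI (TTGGCA, 6 of 69), the E-box CAGCTG (16 of 69), homeobox (TAATTA, 4 of 69), TEAD (GGAATG, 8 of 69), RUNX (TGTGGTT, 5 of 69), ETS (CCGGAAGT, 1 of 69) and NF-Y (CCAAT, 19 of 69). The AP-1 letters TGANTCA and the CRE letters cannot match at the same place in full. A match here says only that the letters are present. The 62 peaks are 1.86% of the EZH2i-only peaks tested, so nothing here describes the sequence of the rest.

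Of the distal vehicle peaks, 21961 (45.3%) had no overlap in the EZH2i list. The same count was 18155 (37.4%) for CBPi and 17444 (36.0%) for FSK. Of the 21961 distal peaks missing from the EZH2i list, 10573 (48.1%) were also missing from both other lists and 3463 (15.8%) were EZH2i-only. The CBPi-only class held 1875 peaks (3.87% of distal peaks) and the FSK-only class 2701 (5.57%), while 20978 (43.3%) were present in all lists. These counts move with the length of the lists. When each list was shortened to its 41086 peaks of largest area, 1164 of 29725 distal peaks were EZH2i-only, 3.92% (3.70 to 4.14), against 5.22% CBPi-only and 9.73% FSK-only. EZH2i-only was thus the largest of the 3 classes in the deposited lists and the smallest in lists of equal length. Shortening left the EZH2i list whole and cut the vehicle list at area 389.9. It could only lower the EZH2i-only count, while a shorter CBPi or FSK list could also add peaks to its own class.

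The EZH2i-only peaks were small to middle-sized peaks of the vehicle list. Their area of significance, the deposited signal of a peak, ranged from 200 to 3130 with a median of 437.9 and quartiles of 318 and 595. The median peak stood at percentile 38.0 of the vehicle list, was 433 bp wide and had a summit −log10 p of 4.14. Distal peaks present in all lists had a median area of 923, and CBPi-only and FSK-only peaks had medians of 437.6 and 489. Only 926 EZH2i-only peaks, 26.7%, fell above the median area of the vehicle list, against 41.1% of all distal peaks. A peak's area also bears on whether a caller keeps it, so these sizes describe how the rule chose.

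Across deciles of the vehicle list by area, the EZH2i-only share of distal peaks was 5.14% in decile 1, the smallest, rose to 11.9% in decile 5 and fell to 2.25% in decile 8. It was 6 of 3122 in decile 9 and 1 of 1659 in decile 10. Peaks of decile 1 were mostly missing from all lists (60.1%), and those of decile 10 were almost all present in all lists (99.8%). The CBPi-only and FSK-only shares had the same humped course.

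**Figure D1:**
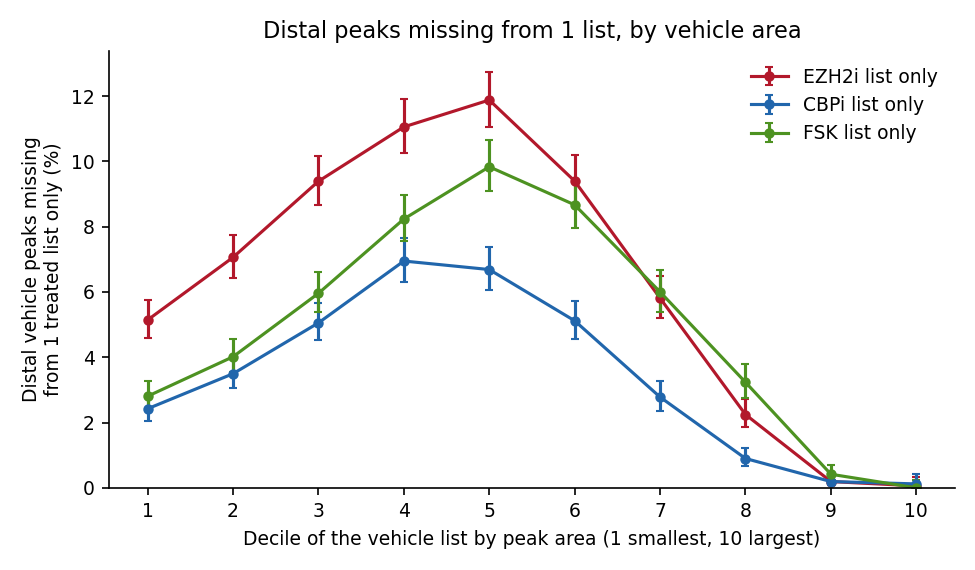
Share of distal vehicle peaks missing from 1 treated list only (y axis, percent, Wilson 95% intervals) by decile of the vehicle list by peak area (x axis), for the EZH2i, CBPi and FSK lists. The EZH2i-only share is highest in decile 5, at 11.9%, and 0.192% and 0.0603% in deciles 9 and 10.

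The same peaks were also small in the lists that held them. The CBPi counterparts had a median area of 321 and stood at a median percentile of 22.2 of the CBPi list, with 2394 of 3463 (69.1%) under area 400. The FSK counterparts had a median area of 349 and a median percentile of 30.1, with 2086 (60.2%) under 400. Areas of separate lists cannot be set against each other, so only the places within each list are described. At 355 positions (10.3%) the area was 400 or more in the vehicle, CBPi and FSK lists, and at 49 (1.41%) it was above the median of all of these lists. The counterparts covered the same sites: the vehicle summit was covered in 99.2% of cases in each list, and the median distance between summits was 25 bp (CBPi) and 26 bp (FSK). The smallest overlap that counted as presence was 2 bp in the CBPi list and 63 bp in the FSK list.

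**Figure D2:**
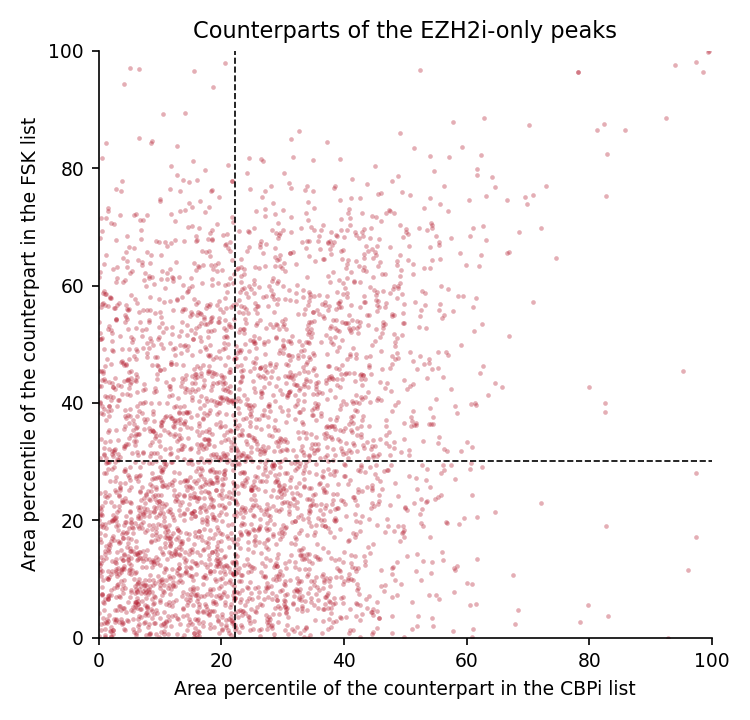
Each point is 1 of the 3463 EZH2i-only peaks, placed by the area percentile of its counterpart in the CBPi list (x axis) and in the FSK list (y axis). Dashed lines mark the medians, 22.2 and 30.1, and most points lie in the lower left.

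At the edges of the rule, the EZH2i-only peak nearest to an EZH2i peak had CERK as its nearest gene (chr22:46738746-46739467), with a gap of 5 bp. The distal peak with the smallest EZH2i overlap that still counted as present had OGDH as its nearest gene (chr7:44638210-44638534), with 19 bp. On the distance limit, the nearest EZH2i-only peak was 1003 bp from an end of UBAP2, and a peak 997 bp from an end of TMEM192 with the same pattern of overlaps was left out. In all, 258 peaks nearer to a gene end had the same pattern.

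Most EZH2i-only peaks had no EZH2i peak close by. The gap to the nearest EZH2i peak had a median of 15028 bp and reached 677924 bp, and 879 peaks (25.4%, 24.0 to 26.9) had an EZH2i peak within 5 kb. For other distal peaks missing from the EZH2i list that share was 19.6% (19.0 to 20.1). FSK-only peaks had an FSK peak within 5 kb in 28.6% of cases, and CBPi-only peaks a CBPi peak in 16.5%. Within 500 bp of an EZH2i peak lay 171 EZH2i-only peaks, 4.94%. In 65 of these 171 the CBPi or FSK counterpart also spanned another vehicle peak, against 38 of the 3292 farther away. There, 1 list held as a single peak a region that the vehicle list held as several. Without both kinds, 3254 EZH2i-only peaks (94.0%) were left.

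**Figure D3:**
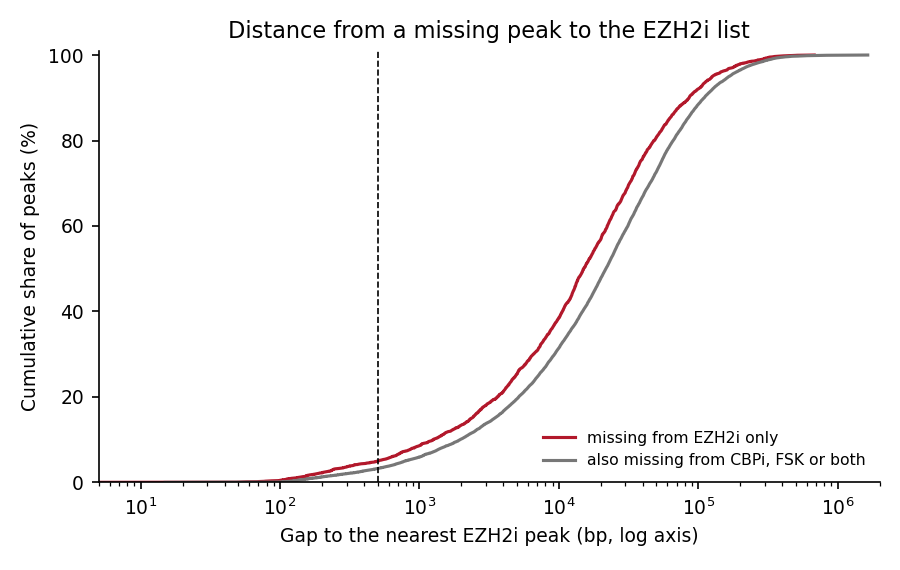
Cumulative share of peaks (y axis, percent) by the gap to the nearest EZH2i peak (x axis, bp, log scale), for EZH2i-only peaks and for other distal vehicle peaks missing from the EZH2i list. The dashed line is at 500 bp, where the EZH2i-only curve stands at 4.94%, and at 5 kb it stands at 25.4% against 19.6%.

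The EZH2i-only peak of largest area, which was also the widest at 2019 bp, lay in a gene-poor stretch of chromosome 13 (chr13:89659066-89661084), 1738282 bp from the nearest end of GPC5, a heparan sulfate proteoglycan gene. Its vehicle area was 3130, at percentile 91.5 of the vehicle list, and its counterparts stood at percentiles 26.5 (CBPi) and 81.5 (FSK). The nearest EZH2i peak was 34427 bp away. It was the only EZH2i-only peak in decile 10 of the vehicle list.

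The next in area was in PDZRN4 (chr12:41220589-41222239, area 1739), which encodes a RING finger protein with PDZ domains. It was at percentile 14.7 (CBPi) and 74.1 (FSK). A peak 43656 bp from an end of its relative PDZRN3 (chr3:73667929-73669130, area 1632) had the same pattern, at percentiles 11.6 and 76.4. So did a peak in NEK7, a kinase of mitosis and of the inflammasome (chr1:198171453-198172267, area 1648), at 8.72 and 84.6. In these 3 peaks the FSK counterpart was among the larger peaks of its list and the CBPi counterpart among the smallest.

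In the large peaks that follow, the counterparts stood nearer to each other, with higher CBPi percentiles and lower FSK percentiles than in these 3. The peak near GPC5, at percentiles 26.5 (CBPi) and 81.5 (FSK), is not among the peaks that follow. Near SERBP1, an RNA-binding protein gene (chr1:67464469-67465896, area 1697), the counterparts stood at percentiles 49.3 and 62.7. Near ACTR3B, a relative of an actin-nucleating subunit (chr7:152909750-152911178, area 1671), they stood at 33.5 and 42.8. Near HS3ST1, a heparan sulfate sulfotransferase gene (chr4:11947341-11948563, area 1631), they stood at 42.0 and 47.6, and an EZH2i peak lay 795 bp away. In VTI1A, a vesicle fusion gene (chr10:112783556-112784710, area 1613), they stood at 42.5 and 63.3, and no EZH2i peak lay within 50 kb.

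The peaks with the largest counterparts in both lists were shoulders of broad regions. In KAT2B, which encodes the acetyltransferase PCAF (chr3:20042310-20042817), a vehicle peak of area 539 met counterparts of area 7973 (CBPi) and 8571 (FSK), 2982 and 3136 bp wide. An EZH2i peak lay 133 bp from it. The same held for ROBO1, a receptor of axon guidance (345 bp), CDC16, a subunit of the anaphase-promoting complex (70 bp), and PCCA, a subunit of a mitochondrial carboxylase (105 bp). All 4 gaps are within 500 bp, so these peaks show how borders were drawn.

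Away from such borders, the peaks that were large in both other lists were chosen after their values were seen. They had an EZH2i peak beyond 500 bp and counterparts that spanned no other vehicle peak. In BUB1, a kinase of the spindle checkpoint (chr2:110674633-110675508), the vehicle area was 567, and the counterparts stood at percentiles 68.6 (CBPi) and 69.1 (FSK). In MED26, a subunit of Mediator (chr19:16580918-16582122), the vehicle area was 1546, and they stood at 64.7 and 76.8. In AACS, which activates ketone bodies for lipid synthesis (chr12:125092308-125093380), the vehicle area was 970, and they stood at 62.7 and 70.1, with an EZH2i peak 26082 bp away. In MAST4, a microtubule-associated kinase (chr5:67165706-67166831), the vehicle area was 997, and they stood at 62.3 and 65.3.

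The peaks farthest from any EZH2i peak had no protein-coding gene end within 100 kb. The farthest, 677924 bp away, was 589039 bp from SALL3, a developmental zinc finger gene (chr18:78390534-78390990, area 699). Its counterparts stood at percentiles 33.8 (CBPi) and 72.4 (FSK). Others lay 486237 bp from ANO3, 176031 bp from NXPE2, 1311661 bp from KCNJ18 and 565483 bp from MAGEB5, and 1 was inside RTL4. Their gaps were 458772 bp or more and their vehicle areas 227 to 585.

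Position in the genome was not part of the rule beyond the 1 kb limit. EZH2i-only peaks lay inside a protein-coding gene in 53.3% of cases (51.7 to 54.99), while all distal peaks with the same mix of vehicle areas did so in 47.8%. The FSK-only share was 52.3% and the CBPi-only share 34.8%. A gene end lay within 100 kb of 76.2% of EZH2i-only peaks (74.7 to 77.6), 77.3% of FSK-only peaks and 45.7% of CBPi-only peaks. The median distance to a gene end was 31182 bp for EZH2i-only, 33926 bp for FSK-only and 118817 bp for CBPi-only peaks. EZH2i-only and FSK-only values were close on these measures, and the intervals of both shares lay wholly above those of CBPi-only peaks. In lists of equal length the EZH2i-only peaks lay inside genes in 51.8% of cases and the CBPi-only peaks in 34.5%.

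Gene content of the surrounding 5 Mb window separated the classes too. From the quintile of distal peaks with the fewest genes to the quintile with the most, the EZH2i-only share went from 5.94% (5.49 to 6.43) to 7.76% (7.25 to 8.31). The CBPi-only share went from 7.70% to 1.26%, and the FSK-only share from 3.40% to 7.51%. In lists of equal length the EZH2i-only share was 3.89% (3.42 to 4.41) in the first quintile and 3.52% (3.08 to 4.01) in the last. The other courses kept their direction, from 10.2% to 1.43% for CBPi-only and from 6.09% to 13.2% for FSK-only. The rise seen for EZH2i-only peaks was not seen once the lists had the same length.

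**Figure D4:**
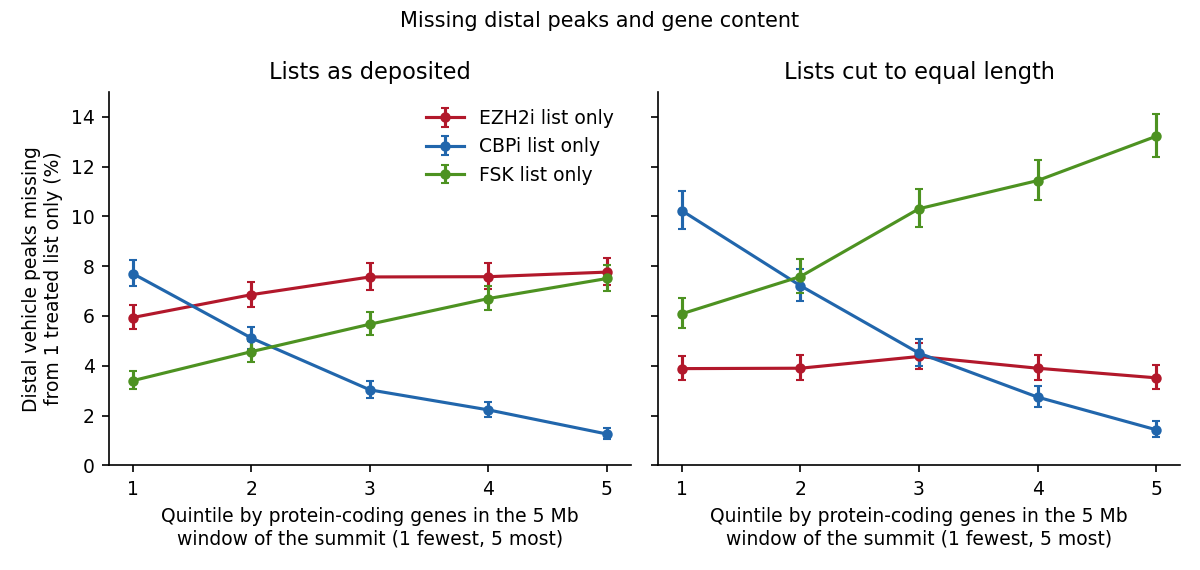
Share of distal vehicle peaks missing from 1 treated list only (y axis, percent, Wilson 95% intervals) by quintile of peaks by the number of protein-coding genes in their 5 Mb window (x axis), in the lists as deposited (left) and in lists of equal length (right). The EZH2i-only line is the flattest of the 3 on the right, at 3.52% to 4.37%.

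Starts of genes were seldom covered. An annotated start window was overlapped by 62 of 3340 EZH2i-only peaks, 1.86% (1.45 to 2.37), against 2.79% of all distal peaks at the same area mix and 11.4% of distal peaks present in all lists. The share was 1.17% for CBPi-only peaks, 3.54% for FSK-only peaks and 1.09% for peaks missing from all treated lists. For 24 EZH2i-only peaks the start was that of a protein-coding gene. The other starts belonged to long non-coding RNAs.

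By chromosome, the EZH2i-only share of distal peaks ran from 5.80% on chromosome 7 (5.11 to 6.57) to 10.1% on chromosome 20 (8.24 to 12.4). Compared with all distal peaks at the same area mix, the interval was wholly above on chromosomes 3, 12, 17, 19 and 20 and wholly below on 7, 10 and 11. On the other 15 it held the expected value. Chromosome 7 had the highest CBPi-only share, 7.20%. Copy number was not measured, so its part in these shares was not tested.

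**Figure D5:**
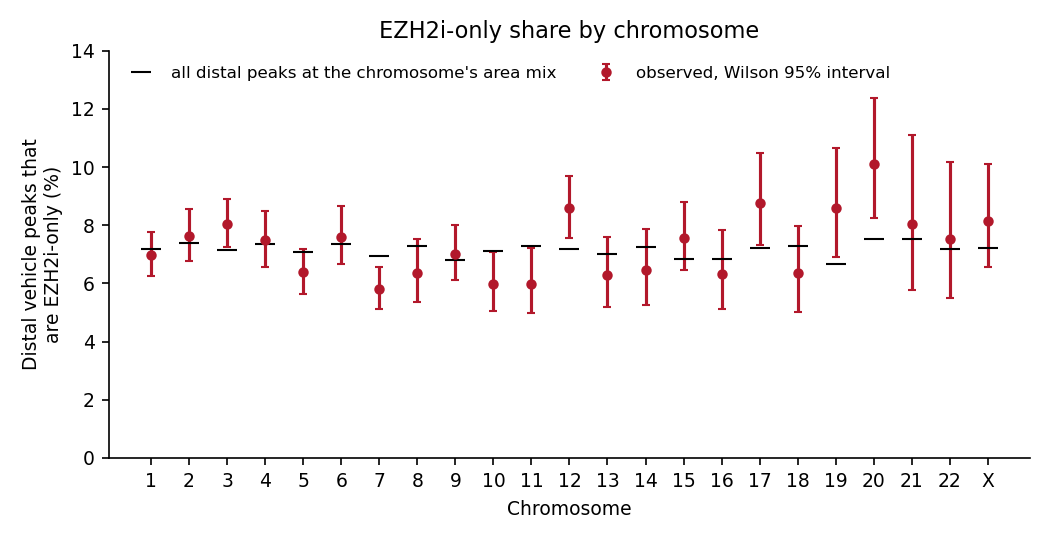
EZH2i-only share of distal vehicle peaks (y axis, percent, points with Wilson 95% intervals) by chromosome (x axis), with dashes for the share that all distal peaks give at the chromosome's mix of vehicle areas. Chromosome 20 is highest at 10.1% against 7.54% for its area mix, and chromosome 7 lowest at 5.80% against 6.93%.

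EZH2i-only peaks were scattered rather than gathered into long blocks. The nearest other distal vehicle peak was also EZH2i-only for 348 of 3463, 10.1% (9.09 to 11.1), against a share of 7.14% over all distal peaks. The same figures were 11.7% against 3.87% for CBPi-only and 9.63% against 5.57% for FSK-only peaks. Counted along the chromosomes, 2880 EZH2i-only peaks stood alone between distal peaks of other classes. There were 251 runs of 2, 23 runs of 3 and 3 runs of 4.

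Runs of 4 lay in CCDC192, between PROB1 and UBE2D2, and in a stretch of chromosome 2 with no gene end within 100 kb. The nearest gene to the last is DDX18, an RNA helicase gene, 278304 to 344262 bp away. This run spanned 66.1 kb (chr2:117470335-117536472), and the EZH2i peak closest to any of its peaks was 33296 bp away. Its vehicle areas were 671, 453, 477 and 511. The CCDC192 run spanned 105.5 kb (chr5:127762290-127867786), with vehicle areas of 630, 602, 231 and 792. The PROB1 to UBE2D2 run spanned 118.3 kb of a gene-dense part of chromosome 5 (chr5:139395740-139513993) with smaller peaks, of area 419, 299, 242 and 387, and EZH2i peaks 3731 to 10091 bp away.

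Each peak was then given to the closest protein-coding gene, by its nearer end and up to 100 kb away. In this way 2638 EZH2i-only peaks went to 2226 genes and 825 to none. Of the genes, 1883 had 1 such peak. Over all assigned distal peaks the EZH2i-only share was 7.66%. The gene with the most was CHD2, a chromatin remodeller, with 5 of its 16 distal peaks EZH2i-only, 4 of them between 21463 and 88568 bp from the gene and 1 inside it. The peak inside CHD2 (chr15:92974467-92975008) had the largest area of these, 1112, and no EZH2i peak within 54832 bp. Of the others, 3 had an EZH2i peak within 1 kb.

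There were 11 genes with 4 EZH2i-only peaks each, of which the 7 with the largest summed vehicle area are named. They were MEF2C, a transcription factor of muscle and neurons (of 30 distal peaks), HPCAL1, a calcium sensor (of 11), ERGIC1, of transport between endoplasmic reticulum and Golgi (of 11), and CCDC192 (of 18). The others were WHRN, a scaffold protein of hair cells (of 24), TMEM18 (of 10) and PSMB7, a proteasome subunit (of 10). In HPCAL1 all 4 peaks missing from the EZH2i list were present in the CBPi and FSK lists. The largest MEF2C peak (chr5:88828932-88830235) had vehicle area 1422, with counterparts at percentiles 14.3 (CBPi) and 49.1 (FSK), and an EZH2i peak lay 1357 bp away. Near TMEM18 a peak of vehicle area 407 (chr2:602972-603395) had an FSK counterpart at percentile 83.4. Counted by summits inside the gene, THSD4, of the extracellular matrix, had the most, 6 of 50.

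Across 12 gene lists, the EZH2i-only share of assigned distal peaks ranged from 0 of 44 (immune markers, Wilson upper bound 8.03%; 3 counts of the 44 would be 6.82%) to 13.3% (housekeeping genes, 6 of 45). For all 12 lists the Wilson interval held both the 7.66% over all genes and the share at the list's own area mix. No list stood apart from all genes by these counts, and the lists hold few peaks each. The median vehicle area of the EZH2i-only peaks was 427 over all genes.

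Among steroidogenic and adrenal identity genes, 9 of 112 assigned distal peaks were EZH2i-only, 8.04% (4.29 to 14.6), with a median vehicle area of 468. SOAT1, which stores cholesterol as esters, had 1 distal peak and it was EZH2i-only (chr1:179302980-179303535). Its vehicle area was 774, its counterparts stood at percentiles 49.5 (CBPi) and 51.5 (FSK), and the nearest EZH2i peak was 8774 bp away. CYP11A1, which makes the first cut of the cholesterol side chain, had 1 of 5. That peak lay 1944 bp from the gene, with area 609 and an EZH2i peak at 1230 bp. HSD3B1 had 1 of 6, and its CBPi counterpart was at percentile 0.577, among the smallest of the list.

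Among Wnt/β-catenin targets, 6 of 118 were EZH2i-only (median area 420). LGR5, a stem cell receptor of the pathway, had 2 of 9, both inside the gene and over 53 kb from any EZH2i peak. The larger (chr12:71552741-71553599) had vehicle area 1299 and counterparts at percentiles 35.9 and 39.8. TBX3, a T-box factor, had 2 of 14, DKK1, a secreted Wnt inhibitor, 1 of 2 and MYC 1 of 11. Among cAMP and PKA genes, 7 of 152 were EZH2i-only (median area 378). PRKAR2B, a regulatory subunit of PKA, had 2 of 7 and SGK1, a hormone-induced kinase, 2 of 6, while ADCY2, an adenylyl cyclase, had 1 of 14 and KLF4 1 of 3. The ADCY2 and KLF4 peaks had CBPi counterparts at percentiles 1.69 and 0.838, at the bottom of that list.

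Among Polycomb subunits and acetyltransferase coactivators, 7 of 71 were EZH2i-only, 9.86% (4.86 to 19.0), with a median area of 441. AEBP2, an accessory subunit of PRC2, had 3 of 18. Its largest (chr12:19546826-19547833) had vehicle area 1238 and an EZH2i peak 25075 bp away. CREBBP, which encodes CBP itself, had 2 distal peaks, both missing from the EZH2i list, and 1 was EZH2i-only. It lay inside the gene (chr16:3745793-3746491, area 803), with counterparts at percentiles 42.4 and 53.1. JARID2, another PRC2 partner, had 1 of 12, with small counterparts at percentiles 10.95 and 5.69. KAT2B had 1 of 4, the shoulder described above.

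Among developmental transcription factors, a group known to hold Polycomb targets, 10 of 180 were EZH2i-only, 5.56% (3.05 to 9.92), with a median area of 585. GATA3 had 2 of 6, with areas of 378 and 655. MEIS2 (1 of 18), LHX2 (1 of 8) and SOX5 (1 of 5) had the largest peaks among the genes with 1. For SOX5 all 5 distal peaks were missing from the EZH2i list and none from the FSK list. Among genes of axon guidance and cell adhesion, 16 of 282 were EZH2i-only, 5.67% (3.52 to 9.02), with a median area of 521. In this list 155 of the 282 peaks were missing from the EZH2i list, against 14819 of 34425 over all genes, and 16 of the 155 were EZH2i-only, against 2638 of the 14819. PDZRN3 had 3 of 18, SLIT3, a secreted guidance cue, 2 of 8, and CDH2, N-cadherin, 1 of 10.

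Among cell cycle and E2F genes, 8 of 68 were EZH2i-only, 11.8% (6.08 to 21.5), with a median area of 469. CCNE1, cyclin E, had 3 of 10, at distances of 1453 to 15295 bp from the gene. The nearest of these met a CBPi counterpart at percentile 96.1 and an EZH2i peak at 128 bp, so it lay on a border. E2F7 and CCND3 had 1 of 6 each, and BUB1 had its single distal peak. Among housekeeping genes, 6 of 45 were EZH2i-only, with a median area of 462, in 6 genes that included EEF1A1, HPRT1 and SDHA. The EEF1A1 peak was 1734 bp wide (chr6:73512915-73514648) with area 855, and its CBPi counterpart was at percentile 0.602.

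Marker lists of other cell types gave 1 of 21 for fibroblasts (LUM), 4 of 31 for endothelium and 1 of 32 for chromaffin cells. The endothelial peaks were near KDR (2 of 3), FLT1 (1 of 4) and VWF (1 of 5). The larger KDR peak (chr4:55184702-55185551) had area 1215 and the other 3 were between 250 and 297. KDR is the receptor of vascular endothelial growth factor, and its end is over 55 kb from these peaks.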

How the data were processed

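The submitters' processing notes name Bowtie2, Genrich and deepTools 2.0 and the build hg38. Roles and settings of these tools, read filters, the Tn5 shift and the handling of replicates were not given in the sources used here. There was 1 peak list per group. The authors deposited for each peak a signal, used here as the area of significance, a −log10 summit p and a capped score, which was not used. The smallest deposited area was 200 in each list.

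Lists were read with Python 3.11.15, pandas 2.3.3 and numpy 2.4.6. Gene ends came from a RefSeq table of GRCh38.p14 (19974 protein-coding genes). Overlap meant 1 bp. A share at an area mix is the share among all distal peaks, reweighted to the vehicle-area deciles of the class. Percentiles are ranks of area within 1 list. The overlap rule was checked on made-up peaks. No test was run, since 1 list a group gives no replicate error.

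Members, gene lists and motifs were chosen with earlier results of these data known. Named peaks were the 8 of largest area, 4 with the largest counterparts, 6 farthest from the EZH2i list and the widest. Named genes were the 8 with most members and up to 4 per list, or all with 2 or more; some are not reported here. No genome was used, so the planned motif search in the peaks themselves was not run, and chromosome 8 had no start windows here. Alternatives were other overlap, area and distance limits, lists of equal length and, chosen after seeing the data, the AP-1 settings and peaks away from borders.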

Additional observations from a re-analysis of the deposited data

How the results depend on the processing

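No paired analysis was possible because each group has 1 peak list and no column per library. For the same reason no replicate was left out.

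Counts of members within 1.5 times the reported 3463 came from the other overlap, gap and distance limits. With vehicle area of at least 400 the count was 1995, with that limit in the CBPi and FSK lists too 355, and with lists of equal length 1164. The EZH2i list, the shortest, stayed whole while the other lists were cut, so these 1164 could only come from the 3463. The member share of distal peaks was 7.84% when 50% of the peak had to be covered, 6.79% with no EZH2i peak within 500 bp, 6.87% and 1.22% under the area limits, 3.92% in lists of equal length and 6.71% without border peaks. Median vehicle areas in the order 50% covered, vehicle area limit, limit in 3 lists and equal length were 475.9, 565.6, 636.1 and 596.2. The share inside genes was 56.1% with the limit in 3 lists and 51.0% with distal set at 5 kb. The share within 5 kb of an EZH2i peak was 41.2% (50% covered), 21.5% (none within 500 bp), 23.3% and 23.4% (area limits), 23.8% (equal length), 22.9% and 19.1% (distal at 2 and 5 kb) and 21.5% (without border peaks). The median CBPi percentile was 27.5, 24.6, 42.2 and 20.1 in the order 50% covered, vehicle area limit, limit in 3 lists and equal length. The FSK percentile was 36.0, 34.0 and 56.1 for the first 3 of these. The neighbour share was 3.10% with the limit in 3 lists, against a member share of 1.22% at that setting. In lists of equal length it was 7.05%, against a member share of 3.92%. The AP-1 share was 37.5% of 8 windows with the limit in 3 lists and 13.9% of 36 with the vehicle area limit. Fewer or other peaks enter each of these, and the cause was not tested further. Of 120 counts per gene list and setting, 34 differed by over 1.5 times. Counted inside gene bodies, CHD2 had 1 EZH2i-only peak and TMEM18 had 0.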

Other observations

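There were 5 annotated microRNA hairpins that overlapped 4 of 3340 EZH2i-only peaks, against 56 of 20248 distal peaks present in all lists. MIR3158-1 and MIR3158-2 are annotated on opposite strands of 1 site within DPCD, and the peak there had vehicle area 361. MIR6745 lay in a peak of area 357 inside PACSIN3, MIR6787 in a peak of area 662 inside SLC16A3, and MIR4645 in a peak of area 366 near SERPINB1. The overlap was partial for MIR3158-1 and MIR3158-2 (49 of 81 bp each) and MIR6787 (41 of 61 bp), and whole for the others. The mature sequences are from RefSeq, with the seed (bases 2 to 8) in capitals. All 7 seeds differ.
hsa-miR-3158-5p: cCUGCAGAgaggaagcccuuc
hsa-miR-3158-3p: aAGGGCUUccucucugcaggac
hsa-miR-6745: uGGGUGGAagaaggucugguu
hsa-miR-6787-5p: uGGCGGGGguagagcuggcugc
hsa-miR-6787-3p: uCUCAGCUgcugcccucuccag
hsa-miR-4645-5p: aCCAGGCAagaaauauugu
hsa-miR-4645-3p: aGACAGUAguucuugccugguu

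Some windows of 1 Mb held many EZH2i-only peaks, and they were picked after their counts were seen. From 17 to 18 Mb of chromosome 17, 9 of 35 distal peaks were EZH2i-only, 25.7% (14.2 to 42.1), and all 9 lay inside MPRIP, PEMT, RAI1 or TOM1L2. The largest, in MPRIP, had vehicle area 1367. From 69 to 70 Mb of chromosome 3, 8 of 30 were EZH2i-only, of which 3 lay inside MITF with vehicle areas of 224, 463 and 783. From 172 to 173 Mb of chromosome 3, 9 of 55 were EZH2i-only, 3 of them in FNDC3B. From 48 to 49 Mb of chromosome 18, 8 of 53 were, 5 of them in ZBTB7C, a BTB zinc finger gene.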
